A study of Mus musculus with 8 samples.

Results

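Genes for 3 fibroblast growth factors (*Fgf2*, *Fgf7* and *Fgf18*), 4 receptors (*Fgfr1*, *Fgfr2*, *Fgfr3* and *Fgfrl1*) and 3 Sprouty proteins (*Spry1*, *Spry2* and *Spry4*) were examined in murine articular chondrocytes. They were selected by name, as 10 of the 54658 gene symbols counted by RNA-Seq. Primary chondrocytes were taken from the femoral heads of wild-type mice aged 3 weeks (strain not given in the sources used here). They were treated for 24 h with IL-1β (1 ng/mL, 4 samples) or with vehicle (4 samples). The paper describes medium with fetal bovine serum for murine cultures after inhibitor transfection, and not expressly for these samples. IL-1β is a proinflammatory cytokine that activates NF-κB, and the comparison asks which genes respond to it. Nothing in the labels says that the 4 samples of a group came from separate cultures or animals, so p-values measure the spread between these samples, which may be technical.

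FGFs are secreted or matrix-bound ligands that bind receptor tyrosine kinases together with heparan sulfate chains, and the activated receptors signal through the adaptor FRS2 to RAS and the ERK kinases. Sprouty proteins are induced by this signal and restrain it, so that their transcripts are widely read as part of a feedback loop. In cartilage, FGFR3 limits the proliferation of growth plate chondrocytes, FGF18 is known as an anabolic ligand that acts largely through FGFR3, FGF2 is stored in the pericellular matrix, and FGFR1 has been linked to catabolic signaling in articular chondrocytes.

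Total counts were 10992355 to 17104351 per sample with IL-1β and 13970959 to 17456063 with vehicle. Abundances are read counts relative to the library total (CPM), scaled by edgeR's TMM factors. One noncoding feature, *Gm26917*, held 13.2% to 14.6% of the counts of every sample. Testing covered the 14404 genes whose CPM, before TMM scaling, exceeded 1 in 4 or more samples. It was done by edgeR's quasi-likelihood test, with the Benjamini-Hochberg adjustment over all these genes. A gene was called at an adjusted p-value under 0.05. Differentially expressed genes (DEGs) were those called with a log2 fold change (log2FC, IL-1β relative to vehicle) beyond 1 in either direction. The labelled cell type had its markers: in the vehicle samples *Col2a1*, the main collagen of cartilage, stood at 11191 ± 195 CPM (SD, n = 4) and *Acan*, the aggrecan core protein, at 1282 ± 35.7 CPM (SD, n = 4).

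After IL-1β, the chondrocytes had much less transcript of *Fgfr3*, less of *Fgfr2* and *Fgfrl1*, slightly more of *Fgfr1* and more of the ligand *Fgf7*. Of the 10 genes, 8 passed the filter on low counts, while *Fgf18* and *Spry1* did not. Among these 8, 3 were higher after IL-1β (*Fgf2*, *Fgf7* and *Fgfr1*), against 20.4% of all genes tested, and 4 were lower (*Fgfr2*, *Fgfr3*, *Fgfrl1* and *Spry4*), against 19.8%. *Fgf7* was an upregulated DEG, as were 2.86% of all genes tested, and *Fgfr2*, *Fgfr3* and *Fgfrl1* were downregulated DEGs, as were 2.35%. For the same 3 and 4 genes the 4 IL-1β samples lay wholly above or wholly below the 4 vehicle samples, which was so for 18.7% and 18.2% of all genes tested, respectively. The median log2FC was -0.25 over the 8 genes and 0.00 to 2 decimals over all genes tested.

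**Figure D1:**
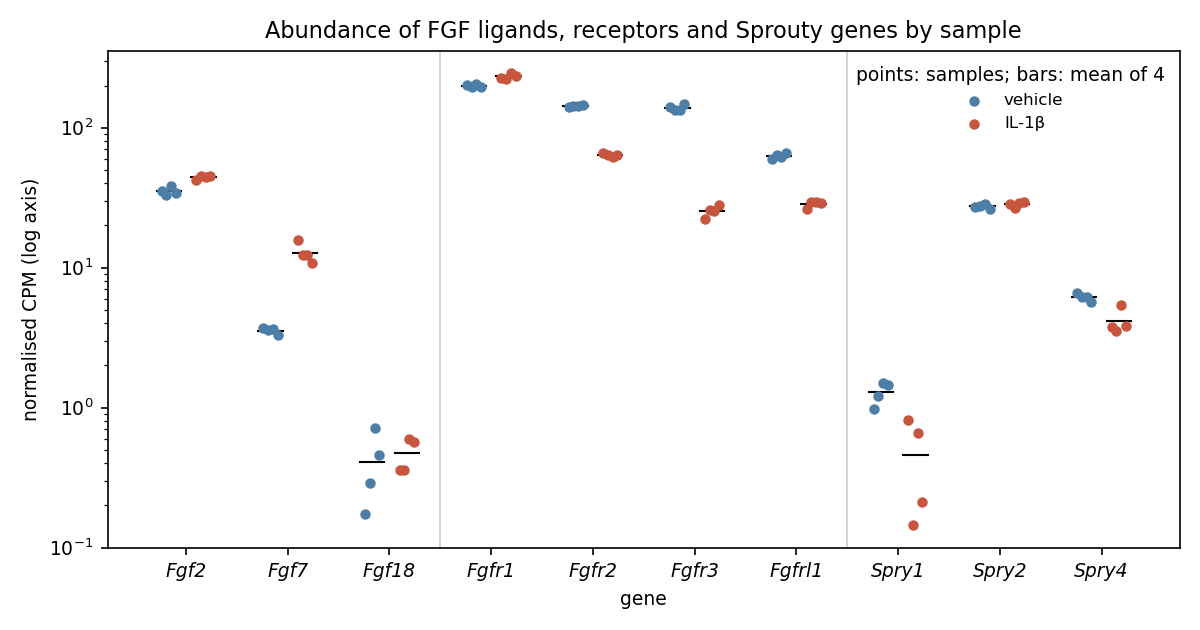
Normalised CPM (log axis) of each of the 10 genes in each sample, with vehicle in blue, IL-1β in red and black bars at the mean of 4. The blue and red points of *Fgfr3* lie furthest apart among the receptors, those of *Fgf7* among the ligands, and those of *Fgf18* and *Spry2* overlap.

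*Fgfr3* had the largest change among the 8 genes. Its abundance was 141, 134, 134 and 146 CPM in vehicle replicates 1 to 4 and 22.2, 25.7, 25.5 and 27.9 CPM in IL-1β replicates 1 to 4. The highest IL-1β sample was thus far below the lowest vehicle sample. The mean after IL-1β was 18.2% of that with vehicle (25.3 ± 2.35 against 139 ± 6.06 CPM, SD, n = 4), a log2FC of -2.45 (standard error 0.0497, adjusted p = 1.92e-25), and it ranked 28 from the lowest among the 14404 log2FCs. The values rest on 246 to 2447 reads per sample. In GENCODE vM21, on the mouse assembly GRCm38, *Fgfr3* (ENSMUSG00000054252.18) lies on chromosome 5 from 33721674 to 33737068, on the plus strand. It shares 13.9% of its exon bases with the opposite-strand feature *G630022F23Rik*, whose own abundance was 0.511 ± 0.262 CPM after IL-1β and 1.36 ± 0.460 CPM in vehicle, and whether reads were counted by strand is not stated. In bulk RNA, fewer cells of a type and less RNA per cell cannot be told apart.

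*Fgfr2* encodes a receptor whose splice forms differ in the ligands they bind, and counts per gene do not separate these forms. It was measured at 141, 142, 143 and 145 CPM in vehicle replicates 1 to 4, compared with 65.7, 63.8, 61.5 and 63.5 CPM in IL-1β replicates 1 to 4. Both groups were narrow and lay apart. The IL-1β mean was 44.6% of the vehicle mean (log2FC -1.17, standard error 0.0343, adjusted p = 1.56e-21). *Fgfr2* (ENSMUSG00000030849.18) is annotated on the minus strand of chromosome 7 from 130162451 to 133123350, and 3.04% of its exon bases are shared with *Ctbp2* on the same strand. *Ctbp2* itself was at 41.0 ± 2.60 CPM after IL-1β and 36.7 ± 2.17 CPM in vehicle (log2FC 0.17, adjusted p = 0.0129 from edgeR).

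*Fgfrl1* encodes a receptor that binds FGFs but lacks the kinase domain of the other receptors. It fell from 59.5, 63.9, 61.4 and 66.0 CPM in vehicle to 26.3, 29.2, 29.6 and 29.1 CPM after IL-1β. The vehicle samples were all above the IL-1β samples, among which replicate 1 was the lowest. The IL-1β mean was 45.5% of the vehicle mean, with a log2FC of -1.13 (standard error 0.0481, adjusted p = 1.18e-17). The gene (ENSMUSG00000008090.14) lies on chromosome 5 from 108692382 to 108706924, on the plus strand, and shares no exon base with another annotated gene.

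*Fgfr1* was measured at 200.1, 196, 205 and 195 CPM in vehicle replicates 1 to 4, compared with 227, 224, 244 and 233 CPM in IL-1β replicates 1 to 4. All IL-1β samples were above all vehicle samples, but the difference was small. The mean rose 1.16-fold, from 199 ± 4.44 to 232 ± 8.90 CPM (SD, n = 4), a log2FC of 0.22 (standard error 0.0328, adjusted p = 2.58e-06). *Fgfr1* (ENSMUSG00000031565.18, chromosome 8 from 25513654 to 25575718, plus strand) shares 1.66% of its exon bases with an opposite-strand gene.

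Since 1 kinase receptor rose while the other 2 fell, the make-up of the receptor transcripts was different in the 2 groups. To compare levels between genes, CPM were divided by the length in kilobases that is listed beside the counts. On this per-length scale, the summed level of *Fgfr1*, *Fgfr2* and *Fgfr3* was 53.4 ± 0.775 CPM per kilobase with vehicle and 33.2 ± 0.898 CPM per kilobase with IL-1β (SD, n = 4). *Fgfr1* made up 37.8% ± 1.06 of this sum with vehicle and 70.8% ± 1.02 with IL-1β. *Fgfr2* made up 25.9% ± 0.339 with vehicle and 18.6% ± 0.960 with IL-1β, and *Fgfr3* made up 36.3% ± 1.15 with vehicle and 10.7% ± 0.876 with IL-1β. The per-length ratio of *Fgfr1* to *Fgfr3* was 0.967 to 1.11 in the vehicle samples and 6.05 to 7.41 in the IL-1β samples. The per-length ratio of the kinase-lacking *Fgfrl1* to *Fgfr1* was 1.12 ± 0.0708 with vehicle and 0.437 ± 0.0212 with IL-1β. These shares and ratios are combinations of the selected genes and are given as a description, with no test. Without division by length, *Fgfr3* held 28.9% with vehicle and 7.89% with IL-1β.

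**Figure D2:**
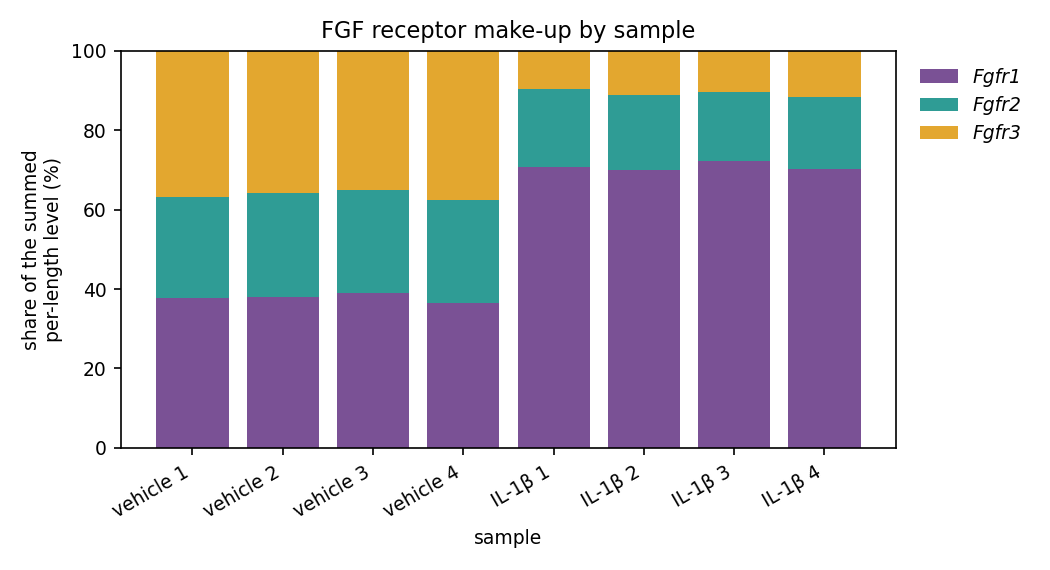
Share of *Fgfr1*, *Fgfr2* and *Fgfr3* in their summed CPM per kilobase, in percent, as 1 stacked bar per sample. *Fgfr1* takes 36.4% to 39.0% of the bar in the 4 vehicle samples and 69.95% to 72.2% in the 4 IL-1β samples, and *Fgfr3* takes 35.0% to 37.7% and 9.55% to 11.6%, respectively.

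Chondrocyte markers fell, as did *Fgfr2*, *Fgfr3* and *Fgfrl1*, while *Fgfr1* rose. All 10 genes of a chondrocyte list (*Col2a1*, *Acan*, *Sox9*, *Comp*, *Matn1*, *Matn3*, *Col9a1*, *Col11a1*, *Hapln1* and *Cnmd*) were downregulated DEGs, as were 2.35% of all genes tested. The log2FCs of the list were from -2.79 to -1.08, and its summed level was 16155 to 16776 CPM in vehicle and 4194 to 4606 CPM after IL-1β. The log2FC of *Fgfr3* lay within the range of this list, next to that of *Acan* (-2.37). Of the 5 genes of an osteoblast list, 4 were tested and lower, 3 of them as DEGs, against 19.8% lower and 2.35% downregulated DEGs among all genes. The list's summed level was 125 to 135 CPM in vehicle and 50.0 to 58.3 CPM after IL-1β. Among superficial zone markers *Prg4*, which encodes lubricin, rose to 2011 ± 47.1 CPM from 856 ± 21.7 CPM (log2FC 1.23, adjusted p = 4.79e-24 from edgeR). Of the other 2 tested, *Cd55* fell (log2FC -0.92, adjusted p = 1.39e-05 from edgeR) and *Vcam1* was not called (log2FC 0.15, adjusted p = 0.722 from edgeR). The summed level of the 5 listed, nearly all of it *Prg4*, was 835 to 886 CPM in vehicle and 1960 to 2074 CPM after IL-1β. The part of these cell type markers in the change of the receptors was not tested. Markers of cells that could be carried along were low in both groups: 5 endothelial genes summed to at most 1.25 CPM, 4 erythroid genes to at most 1.88 CPM, 4 skeletal muscle genes to 1.85 to 2.83 CPM in vehicle and 0.360 to 0.772 CPM after IL-1β, and 4 adipocyte genes to at most 0.505 CPM. Of 6 macrophage genes, summing to 11.5 to 12.8 CPM in vehicle and 15.9 to 18.9 CPM after IL-1β, *Ptprc*, *Csf1r*, *Adgre1* and *C1qa* did not pass the filter, 1 was higher and 1 lower. Of 6 fibroblast genes, summing to 86.1 to 92.9 CPM in vehicle and 94.7 to 101 CPM after IL-1β, 2 were higher and 1 lower. Among all genes tested, 20.4% were higher and 19.8% lower. No listed marker was without a read in all 8 samples.

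Among the ligands, *Fgf7*, which encodes keratinocyte growth factor, a product of mesenchymal cells that binds a splice form of FGFR2 found mainly on epithelial cells, changed most. It had 3.69, 3.58, 3.64 and 3.29 CPM in the vehicle samples and 15.8, 12.3, 12.2 and 10.8 CPM in the IL-1β samples. Every IL-1β sample was well above the vehicle samples, and the IL-1β samples differed more among themselves. The mean was 3.60-fold higher after IL-1β (12.8 ± 2.12 against 3.55 ± 0.181 CPM, SD, n = 4), with a log2FC of 1.83 (standard error 0.124, adjusted p = 5.21e-13) that ranked 144 from the highest. The values rest on 50 to 206 reads per sample. *Fgf7* (ENSMUSG00000027208.14) lies on chromosome 2 from 126034658 to 126091185, on the plus strand, with no exon base shared with another gene.

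*Fgf2* encodes basic FGF, which has no classical signal peptide and is held by heparan sulfate in the matrix. It was measured at 35.3, 32.9, 38.2 and 34.1 CPM in vehicle replicates 1 to 4, compared with 42.2, 44.9, 44.5 and 45.3 CPM in IL-1β replicates 1 to 4. The groups did not overlap, and the vehicle samples varied slightly more. The mean was 1.26-fold higher after IL-1β, a log2FC of 0.34 (standard error 0.0494, adjusted p = 1.97e-06). *Fgf2* (ENSMUSG00000037225.13, chromosome 3 from 37348346 to 37410108, plus strand) shares 13.2% of its exon bases with *Gm43439*, which had no read, and with *Nudt6* on the opposite strand. *Nudt6* itself was at 2.95 ± 0.601 CPM after IL-1β and 2.04 ± 0.356 CPM in vehicle (log2FC 0.50, adjusted p = 0.0398 from edgeR).

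*Fgf18* was near the smallest abundance that could be shown. It had 4, 5, 10 and 8 reads after IL-1β, compared with 3, 5, 10 and 7 reads in vehicle, and 3 reads correspond to 0.173 to 0.270 CPM at these depths. The groups overlapped, and a difference was not detectable at this depth. Without the filter on low counts its log2FC was 0.28 (adjusted p = 0.761 from edgeR over 32379 genes). Such floors allow for counting error alone, because PCR copies of 1 molecule cannot be recognised in these reads. *Fgf18* (ENSMUSG00000057967.12) lies on the minus strand of chromosome 11 from 33117430 to 33147400.

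The stretches before the transcription start of the 4 DEGs are shown because these genes changed most among the 8 tested and differ in base composition. They are from RefSeq, on GRCm38.p6, written 5′ to 3′ on the strand of the gene, and the table used held 8 of the 10 genes (*Fgf2*, *Fgf7*, *Fgf18*, *Fgfr2*, *Fgfr3*, *Fgfrl1*, *Spry1* and *Spry2*). Each stretch ends at the base before the first listed start, except that the last 50 bases of that of *Fgfr3* lie in an annotated exon and are not printed. The RefSeq starts of *Fgfr2* and *Fgfrl1*, and that of *Fgf2*, whose stretch is not shown, lie inside the genes as GENCODE annotates them. So do the whole windows before these starts. The positions are chr2:126034408-126034657 (plus strand) for *Fgf7*, chr5:33721474-33721673 (plus strand) for *Fgfr3*, chr7:130266809-130267058 (minus strand) for *Fgfr2* and chr5:108693979-108694228 (plus strand) for *Fgfrl1*. Capitals mark matches to any of 6 short motifs on either strand, namely the NF-κB consensus, AP-1 (TGANTCA), C/EBP (TTGCNNAA), SOX (ACAANG), ETS (CCGGAAG) and the GC box (GGGCGG).
Fgf7: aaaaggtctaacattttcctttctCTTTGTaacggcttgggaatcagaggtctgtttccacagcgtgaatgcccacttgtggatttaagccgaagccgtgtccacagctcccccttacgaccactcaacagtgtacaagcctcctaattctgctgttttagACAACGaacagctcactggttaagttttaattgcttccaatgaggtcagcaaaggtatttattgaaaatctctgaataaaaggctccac
Fgfr3: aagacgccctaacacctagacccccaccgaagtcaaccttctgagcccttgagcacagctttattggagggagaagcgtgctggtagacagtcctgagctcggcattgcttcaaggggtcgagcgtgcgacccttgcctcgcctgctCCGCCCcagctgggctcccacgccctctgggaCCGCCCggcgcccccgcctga
Fgfr2: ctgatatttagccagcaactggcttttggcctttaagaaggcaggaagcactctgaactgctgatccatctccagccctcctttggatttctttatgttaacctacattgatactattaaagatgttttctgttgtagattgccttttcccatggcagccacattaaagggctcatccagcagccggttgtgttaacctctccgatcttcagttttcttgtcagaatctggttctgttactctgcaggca
Fgfrl1: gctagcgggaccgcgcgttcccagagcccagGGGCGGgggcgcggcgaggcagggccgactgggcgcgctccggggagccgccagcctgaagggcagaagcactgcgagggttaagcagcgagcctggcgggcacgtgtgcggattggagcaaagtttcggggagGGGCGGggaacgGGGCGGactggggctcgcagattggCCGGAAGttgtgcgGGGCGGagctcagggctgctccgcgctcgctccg

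The windows of 250 bases before the start of *Fgfr3* and *Fgfrl1* were rich in G and C (66.8% and 73.6%) and held 3 and 4 GC boxes, respectively, the third of *Fgfr3* lying in the bases not printed. *Fgfrl1* also held an ETS match 48 bases before the start. The windows of *Fgfr2* and *Fgf7* had 44.0% and 43.6% G and C. That of *Fgf7* held 2 SOX matches, 226 and 89 bases before the start, and that of *Fgfr2* held no match. Of the 9921 genes tested that had a window in the table, 60.4% held a GC box, 28.5% a SOX match, 14.2% an ETS match, 7.03% a C/EBP match, 4.31% an NF-κB match and 4.14% an AP-1 match. None of the last 3 kinds was found in the windows of the 8 genes, which says only that these letters are not in these windows. The motifs can overlap each other, and a match is a description of the sequence.

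**Figure D3:**
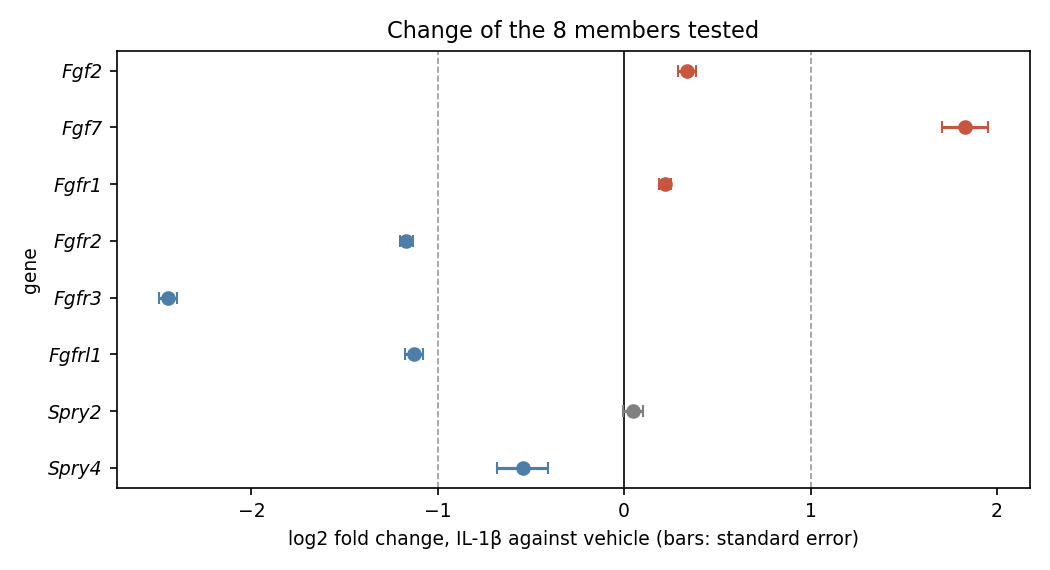
Log2FC of IL-1β against vehicle for the 8 genes tested, with the standard error as bars and dashed lines at -1 and 1. *Fgf7* lies to the right of the dashed lines and *Fgfr3*, *Fgfr2* and *Fgfrl1* lie to the left, while the point of *Spry2* (0.05) is close to 0.

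Of the Sprouty genes, *Spry4* fell, *Spry2* was not called and *Spry1* did not pass the filter. *Spry2*, the most abundant of the 3 per length, was measured at 27.0, 27.6, 28.6 and 26.2 CPM in vehicle replicates 1 to 4, compared with 28.5, 26.6, 28.7 and 29.2 CPM in IL-1β replicates 1 to 4. The groups overlapped, with a log2FC of 0.05 (95% confidence interval -0.06 to 0.15, adjusted p = 0.526 from edgeR; exact permutation test, two-sided, p = 0.286). *Spry2* (ENSMUSG00000022114.5) lies on the minus strand of chromosome 14 from 105891947 to 105896819.

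*Spry4* was measured at 6.58, 6.12, 6.13 and 5.65 CPM in vehicle replicates 1 to 4, compared with 3.78, 3.53, 5.40 and 3.83 CPM in IL-1β replicates 1 to 4. IL-1β replicate 3 was close to the lowest vehicle sample, and the other 3 IL-1β samples were clearly lower. The IL-1β mean was 67.6% of the vehicle mean (log2FC -0.54, standard error 0.136, adjusted p = 0.00182), on 42 to 114 reads per sample. Without IL-1β replicate 3 the log2FC was -0.72. The gene identifier is ENSMUSG00000024427.7.

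*Spry1* had 17, 21, 21 and 22 reads with vehicle and 9, 2, 11 and 3 reads with IL-1β (1.28 ± 0.237 against 0.455 ± 0.327 CPM, SD, n = 4). Every IL-1β sample was below every vehicle sample. Vehicle replicate 1 was at 0.981 CPM, and also just under 1 CPM before TMM scaling, which 4 samples had to exceed. The gene was therefore not tested. Without the filter its log2FC was -1.50 (adjusted p = 0.000148 from edgeR), and with *Gm26917* left out of the library sizes, which raises every CPM, it passed the filter with a log2FC of -1.48 (adjusted p = 0.00135 from edgeR). *Spry1* (ENSMUSG00000037211.12) lies on the plus strand of chromosome 3 from 37639947 to 37644598, and 24.4% of its exon bases are shared with the opposite-strand gene *Gm42922*, which had 0.0164 ± 0.0329 CPM in vehicle and no read with IL-1β. For each of *Fgf2*, *Fgf7*, *Fgfr1*, *Fgfr2*, *Fgfr3*, *Fgfrl1*, *Spry1* and *Spry4* the exact permutation test, two-sided, gave p = 0.0286, below which no comparison of 4 samples and 4 samples can go.

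The order of the 10 genes by level per length was different in the 2 groups. With vehicle it was *Fgfrl1* (22.5 CPM per kilobase), *Fgfr1* (20.2), *Fgfr3* (19.4), *Fgfr2* (13.8), *Spry2* (13.1), *Fgf2* (5.18), *Spry4* (1.33), *Fgf7* (1.09), *Spry1* (0.442) and *Fgf18* (0.344 CPM per kilobase). The ranges of the 4 vehicle samples overlapped between *Fgfr1* and *Fgfr3*, between *Fgfr2* and *Spry2* and between *Spry1* and *Fgf18*. With IL-1β the order was *Fgfr1* (23.5 CPM per kilobase), *Spry2* (13.5), *Fgfrl1* (10.3), *Fgf2* (6.52), *Fgfr2* (6.16), *Fgf7* (3.93), *Fgfr3* (3.54), *Spry4* (0.902), *Fgf18* (0.396) and *Spry1* (0.157 CPM per kilobase). Here the ranges overlapped between *Fgf2* and *Fgfr2* and between *Fgf7* and *Fgfr3*. *Fgfr3* thus ranked 3 from the highest with vehicle and 7 with IL-1β. The listed length of *Spry4*, 4587 bases, differs from the 4755 exon bases of vM21, and the lengths of the other 9 genes are equal to those of vM21.

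Beyond these 10 genes, 124 further genes of the pathway were listed by role, of which 97 were tested, 29 were higher and 36 were lower after IL-1β, with 7 upregulated and 5 downregulated DEGs. Of all genes tested, 20.4% were higher and 19.8% lower, and 2.86% and 2.35% were upregulated and downregulated DEGs. Calls of either direction were thus more frequent among the 97 genes than among all genes. The lists were chosen with earlier results of these data known, so this difference is not independent of the choice, and it was not tested. The median log2FC over the 97 was -0.03, beside 0.00 over all genes tested.

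Of 19 other FGF ligands, 3 passed the filter. *Fgf21*, an endocrine FGF, fell from 12.1 ± 1.29 to 3.71 ± 0.370 CPM (SD, n = 4; log2FC -1.69, adjusted p = 9.22e-13). *Fgf13*, an intracellular FGF homologous factor, rose from 6.35 ± 0.411 to 15.2 ± 0.954 CPM (log2FC 1.26, adjusted p = 4.97e-12). *Fgf22*, named after its values were seen, was not called (log2FC -0.21, adjusted p = 0.518). The median log2FC of the 3 was -0.21. The other 16 had at most 17 reads in any sample, and *Fgf3*, *Fgf5*, *Fgf8*, *Fgf16* and *Fgf20* had none in all 8 samples.

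Of 11 other receptors, co-receptors and binding proteins, 8 were tested, with a median log2FC of 0.13. Of these, 3 were higher, 2 lower and 3 not called, against 20.4% higher and 19.8% lower among all genes. *Fgfr4*, the remaining kinase receptor of the family, went from 1.16 ± 0.132 to 0.207 ± 0.116 CPM (log2FC -2.41, adjusted p = 5.08e-06), on 1 to 22 reads per sample. *Fgfr4* passed the filter through the vehicle samples alone, so its call is not independent of the filter. With any vehicle sample left out it was not tested. Its IL-1β mean was near the 0.178 to 0.270 CPM that 3 reads correspond to in the IL-1β samples. *Flrt2*, which encodes a membrane protein that can bind FGF receptors, rose to 8.12 ± 1.10 from 2.95 ± 0.476 CPM (log2FC 1.45), and *Cdh2*, which encodes N-cadherin, rose to 8.86 ± 0.692 from 4.39 ± 0.767 CPM (log2FC 1.03). *Flrt1* had a log2FC of -0.32 (adjusted p = 0.0284) and was not called without IL-1β replicate 3, vehicle replicate 3 or vehicle replicate 4 (adjusted p = 0.183, 0.0549 and 0.127, respectively). *Nptn*, with the highest level per length of the list, was not called (log2FC -0.07, adjusted p = 0.0691) but was without IL-1β replicate 3 or vehicle replicate 4 (adjusted p = 0.0262 and 0.0232) and with library totals instead of TMM factors (adjusted p = 0.0470). The obligate partners of the endocrine FGFs, *Kl* and *Klb*, did not pass the filter.

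Heparan sulfate proteoglycans, which hold FGFs at the cell surface and in the matrix, divided by gene, with 2 higher, 6 lower and 2 not called among 10 tested (median log2FC -0.18), against 20.4% higher and 19.8% lower among all genes. The syndecan *Sdc4*, the most abundant of the list per length, rose from 483 ± 11.8 to 1105 ± 24.7 CPM (log2FC 1.19, adjusted p = 3.69e-23), and *Sdc1* rose from 45.2 ± 1.62 to 74.3 ± 3.49 CPM (log2FC 0.72). The syndecan *Sdc3* fell from 646 ± 14.3 to 382 ± 15.5 CPM (log2FC -0.76), and the glypican *Gpc6* had a log2FC of -0.81. Of 14 genes tested for the synthesis and editing of heparan sulfate, 1 was higher, 8 were lower and 5 were not called (median log2FC -0.12), against 20.4% higher and 19.8% lower among all genes, and none was a DEG. The 3-O-sulfotransferases *Hs3st1*, *Hs3st3a1* and *Hs3st3b1* had log2FCs of -0.80, -0.66 and -0.53, and *Ext2*, a subunit of the chain polymerase, had one of -0.32. The call of *Hs3st3a1* (adjusted p = 0.0395) was lost by DESeq2, with 1 RUVs factor, and without IL-1β replicate 1 or 4 or vehicle replicate 2, 3 or 4 (adjusted p from 0.0572 to 0.121). *Sulf2*, a heparan sulfate endosulfatase and the most abundant of this list per length, was not called (log2FC -0.04, adjusted p = 0.395).

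The adaptors and the RAS-ERK relay were often called, but with small changes. All 23 genes were tested, with 9 higher, 5 lower and 9 not called, against 20.4% higher and 19.8% lower among all genes, log2FCs from -0.43 to 0.53 with a median of 0.05, and no DEG. The largest were those of *Rps6ka1*, an ERK-activated kinase (0.53), *Braf* (-0.43), *Map2k1*, which encodes the ERK kinase MEK1 (0.41), and the docking protein *Gab1* (-0.37). *Mapk3*, which encodes ERK1 and was the most abundant per length, rose from 62.6 ± 1.59 to 71.8 ± 4.45 CPM (log2FC 0.20, adjusted p = 0.0004).

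Of 10 other feedback inhibitors, *Spry3* was not among the gene symbols counted, and the remaining 9 were tested. Of these, 5 were higher, none was lower and 4 were not called, with no DEG and a median log2FC of 0.12. Among all genes, 20.4% were higher and 19.8% lower. The *Spred* genes, whose products are related to Sprouty and block RAS activation, were all higher: *Spred2* rose from 36.1 ± 2.30 to 60.5 ± 4.53 CPM (log2FC 0.74, adjusted p = 1.58e-12), *Spred3* had a log2FC of 0.90 (adjusted p = 0.000124) at 2.69 ± 0.819 CPM in vehicle, and *Spred1* had one of 0.23 (adjusted p = 0.000185). *Dusp4*, a phosphatase of MAP kinases, had a log2FC of 0.69 (adjusted p = 0.00805), which was not called without IL-1β replicate 3 (adjusted p = 0.0540). *Dusp6*, an ERK phosphatase often used as a readout of FGF signaling, had 29.8 ± 1.82 CPM in vehicle and 28.4 ± 1.74 CPM after IL-1β (log2FC -0.07, adjusted p = 0.401), and is named here after its values were seen.

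A list of targets of FGF-ERK signaling held genes induced by it and also transcription factors that ERK acts on as proteins. Of its 20 genes tested, 7 were higher, 7 were lower and 6 were not called, with a median log2FC of 0.03. Among all genes, 20.4% were higher and 19.8% lower. *Ier3* rose from 48.4 ± 2.64 to 187 ± 4.65 CPM (log2FC 1.95, adjusted p = 6.66e-26), *Phlda1* from 23.5 ± 1.86 to 63.5 ± 2.24 CPM (log2FC 1.43) and *Etv1*, an ETS factor, from 2.29 ± 0.272 to 4.62 ± 0.640 CPM (log2FC 1.02). *Fos* fell from 24.7 ± 0.733 to 10.8 ± 0.659 CPM (log2FC -1.19, adjusted p = 3.52e-14). The ETS factors *Etv4* and *Etv5*, named after their values were seen, had log2FCs of 0.43 and 0.07 (adjusted p = 0.0884 and 0.415). *Ier3*, *Phlda1* and *Fos* also answer to many other signals.

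Another list held genes tied to FGFR3 in cartilage, not all of which act downstream of it. Of its 10 genes tested, 1 was higher, 7 were lower and 2 were not called, with a median log2FC of -0.17. Among all genes, 20.4% were higher and 19.8% lower. *Pth1r*, the receptor of parathyroid hormone-related protein, fell from 98.4 ± 4.57 to 27.2 ± 1.90 CPM (log2FC -1.85, adjusted p = 1.27e-22), *Snai2* from 89.4 ± 2.26 to 43.5 ± 1.37 CPM (log2FC -1.04), *Npr2*, the receptor of C-type natriuretic peptide, from 166 ± 2.93 to 112 ± 4.83 CPM (log2FC -0.57) and the cell cycle inhibitor *Cdkn1a*, the most abundant of the list per length, from 779 ± 10.3 to 587 ± 16.1 CPM (log2FC -0.41). *Pthlh*, *Ihh*, *Nppc* and *Npr3* did not pass the filter.

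**Figure D4:**
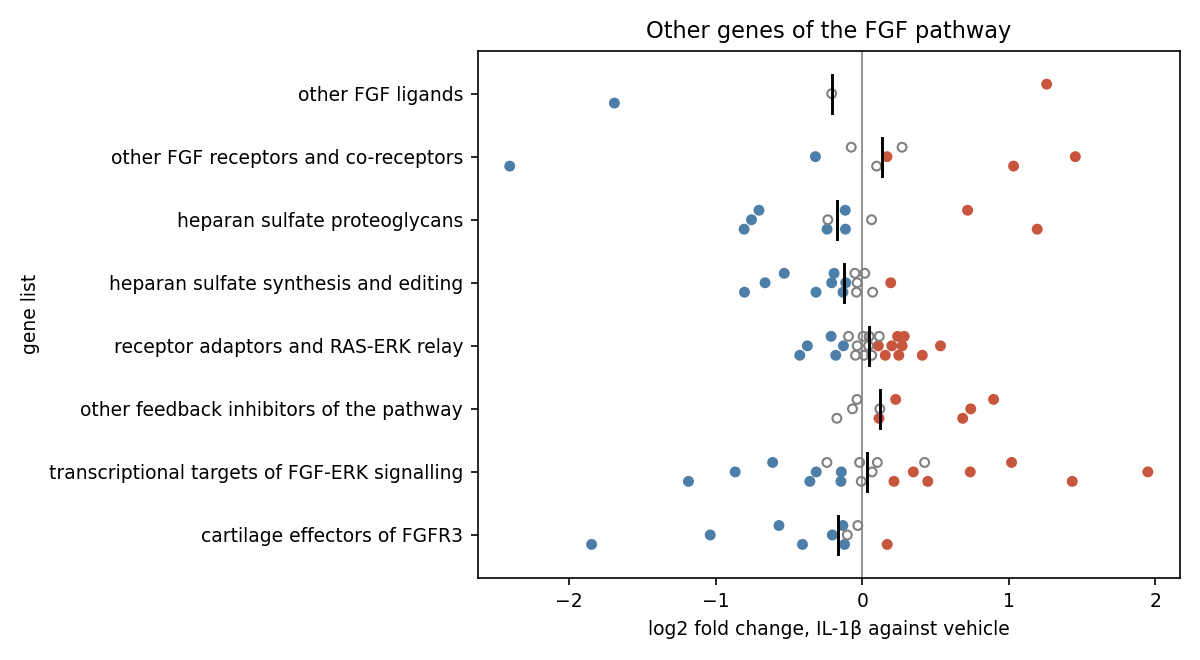
Log2FC of IL-1β against vehicle for the tested genes of 8 lists, 1 point per gene, red and blue for genes called higher and lower, open circles for genes not called, and a black line at the median of each list. Medians lie between -0.21 and 0.13, the points of the adaptors and RAS-ERK relay stay between -0.43 and 0.53, and the points furthest to the left are *Fgfr4*, *Pth1r* and *Fgf21*. That of *Fgfr4* rests on 1 to 22 reads per sample. The lists labelled as effectors of FGFR3 and as transcriptional targets are the mixed lists described above.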

How the data were processed

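RNA from 8 samples of primary murine chondrocytes, 4 treated with IL-1β and 4 with vehicle, was sequenced by the study. Per the labels and the methods of the study, reads were trimmed with cutadapt, aligned to mm10 with STAR (version 2.4.2a in the submitters' processing notes, a later version in the methods) and counted per gene with featureCounts on GENCODE vM20. The authors deposited whole-number counts per gene for all 8 samples with a gene length column; these counts were taken as raw. RUVseq is named in the methods, and whether the deposited counts precede it is not stated. Whether counting used strand is not stated either.

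Samples were grouped by their labels. Counts were normalised by TMM and tested with edgeR 4.0.16 in R 4.3.3 by the quasi-likelihood test on group. Genes were tested if their CPM, before TMM scaling, exceeded 1 in 4 or more samples. Benjamini-Hochberg adjustment was over the 14404 genes tested. Standard errors were derived from the log2 fold change and the F statistic of this test, which gives none itself. The 95% confidence interval was a normal approximation from that standard error. The script was tested on simulated data. Exact permutation tests of single genes were two-sided and used scipy 1.17.1. Abundance per length is normalised CPM divided by the deposited length in kilobases. Total counts of 10992355 to 17456063 put 3 reads at 0.173 to 0.270 CPM. Exon overlap was read from GENCODE vM21, a later release than that of the study, on GRCm38, the assembly that mm10 names, and sequences from RefSeq on GRCm38.p6. Alternatives were DESeq2 1.42.0, its size factors, total library sizes, other filters, a stricter threshold, 1 RUVs factor, a replicate block, each sample left out and *Gm26917* left out, the last chosen after seeing the data.

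The 10 genes, the pathway lists and the marker lists were chosen with earlier results of these data known. The text names all 10 genes and, for each pathway list, up to 4 called genes with the largest log2 fold change and the gene with the highest level per length; other pathway genes are said to be named after their values were seen, or are given as not passing the filter. Of the marker lists, the chondrocyte list is named in full. Some genes of the superficial zone and macrophage lists are named after their values were seen, and the other lists are given without names.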

Additional observations from a re-analysis of the deposited data

Results flagged for a closer look

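In 5 of 88 groups of 4 samples checked, over the genes named above, 1 sample stood apart from the other 3 by Dixon's criterion, and chance gives about 1 in 20, or 4.4 groups. Among the 10 genes, *Fgfrl1* in IL-1β replicate 1 was at 26.3 CPM, below the remaining IL-1β samples at 29.1 to 29.6 CPM, and *Spry4* in IL-1β replicate 3 was at 5.40 CPM, above the rest at 3.53 to 3.83 CPM. Among the other pathway genes, *Gpc6* in IL-1β replicate 2 was at 39.7 CPM (others 36.7 to 36.9 CPM), *Spred2* in IL-1β replicate 4 at 53.7 CPM (others 62.6 to 63.0 CPM) and *Cdkn1a* in vehicle replicate 1 at 764 CPM (others 783 to 786 CPM). In each case the sample lay on the same side of the other group as the rest of its own group.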

How the results depend on the processing

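The 8 tested genes kept their direction and their side of the threshold in all 128 values under 16 alternatives, and the number called among the 10 was 7, with 4 DEGs, except without the filter on low counts and without *Gm26917*, where *Spry1* was added. With each sample left out in turn, 5179 to 5509 of all genes were called, 649 to 722 were DEGs, and 57 to 64 of the other pathway genes were called, against 65 with all samples. Without the filter, the DEGs among all genes numbered 1206, against 751, since more genes were tested. Without division by length, the shares of *Fgfr1*, *Fgfr2* and *Fgfr3* were 41.4%, 29.7% and 28.9% with vehicle and 72.3%, 19.8% and 7.89% with IL-1β. Deviations from the group means were nearly uncorrelated between samples of the same replicate number (0.0416, -0.0505, -0.0118 and -0.0699 for the 4 numbers). This cannot show whether such samples share a culture or animal. With the replicate block 5643 genes were called, against 5796, with 751 DEGs, and 7 of the 10 genes and 65 other pathway genes were called. Depth limits the statements on *Fgf18*, *Spry1* and *Fgfr4*, which had at most 22 reads in any sample.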
